A study of Mus musculus with 12 samples.

Results

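The 10 genes described here encode α-, β- and γ-crystallins (Cryaa, Cryab, Cryba1, Cryba2, Cryba4, Crybb1, Crybb2, Crybb3, Crygs and Crygd), out of 24062 genes in the count table. They were chosen by name, and the choice rests on their counts in the library of Pias3-/- replicate 2 at 18 months, so the levels of that library are given as a description without a test. Transcripts were counted in whole retina of Pias3+/+ mice (C57Bl6/J, the wild type, WT in the plots) and Pias3-/- mice (KO in the plots). The Pias3-/- line, which the study places on the same background, lacks exons 2 to 5 of the SUMO ligase gene Pias3 in all tissues. It arose after recombination by a leaky Rx-Cre in the germline. Each genotype was sampled at postnatal day 21 (P21) and at 18 months with 3 biological replicates of 2 frozen retinas each from mice of either sex, which gave 12 libraries of 11607155 to 25622505 counts. The questions for these genes were whether they differed by genotype or age in the libraries that did not choose them, and what else was raised in the library that did.

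Crystallins are the soluble proteins that fill the fibre cells of the lens and give it its refractive power. The α-crystallins (Cryaa, Cryab) are small heat shock proteins that bind unfolding proteins, and Cryab is also made in muscle, glia and other tissues. The β- and γ-crystallins are structural proteins of 1 superfamily that share a Greek key fold. Genes of the γA to γF cluster are used mainly in lens fibres formed before and around birth, whereas Crygs and Crybb2 are used strongly in fibres laid down later. Transcripts of several crystallins are also reported from neural retina, and lens tissue can remain on a retina during dissection.

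In the mm10 coordinates of the count table, 4 of the 10 genes lie on chromosome 5. Cryba4 (chr5:112246533-112252502, minus strand) and Crybb1 (chr5:112255821-112269582, plus strand) stand head to head with 3318 bases between them. Crybb2 (chr5:113058265-113068766) and Crybb3 (chr5:113075839-113081584) follow each other on the minus strand with 7072 bases between them. Cryba2 (chr1:74889934-74893143) and Crygd (chr1:65061838-65063440) lie on chromosome 1. The other 4 are Cryaa (chr17:31677931-31681730), Cryab (chr9:50751325-50756635), Cryba1 (chr11:77718732-77725293) and Crygs (chr16:22805203-22811410). The values below are sums over the 3 to 6 exons of each gene.

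Neighbouring and related genes limit what the counts can tell apart. Cryab overlaps Hspb2, a small heat shock gene on the opposite strand, by 1030 bases, and in the GENCODE M21 annotation genes on the opposite strand also overlap Cryaa, Cryba1 and Crybb2. The libraries kept strand, but whether the counting used it is not given in the sources used here, so reads of overlapping genes may not be told apart. Of the 31-base words in Crygd transcripts, 25.1% also occur in Cryge transcripts, so the division of counts between those genes is uncertain. For the other 9 members the share of such words found in any other gene was at most 3.90%, reached by Cryba1.

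As a check of the labels, Pias3 itself was at 113 to 140 CPM (counts per 1000000 counts of the library, scaled by the trimmed mean of M-values over the 12 libraries) in Pias3+/+ and 71.8 to 86.4 CPM in Pias3-/- retina at P21. At 18 months it was at 97.2 to 107 CPM in Pias3+/+ and 52.5 to 61.7 CPM in Pias3-/-. Exons outside the deletion were counted with the rest, so the gene was not at 0. The retinal label was checked with rod, cone, Müller glia and ganglion cell markers. The summed rod markers were between 18095 and 33566 CPM in all libraries, and Pias3-/- replicate 2 at 18 months, at 29839 CPM, was among them. Xist, the RNA of the inactive X chromosome, had 21064 to 66502 counts in the 3 Pias3+/+ libraries at 18 months and at most 11 in the 3 Pias3-/- libraries of that age. Genotype and sex could therefore not be told apart at 18 months.

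Pias3-/- replicate 2 at 18 months stood apart from the other 11 libraries in 9 of the 10 crystallins. The 10 genes took 0.946% of its counts (exact binomial 95% confidence interval 0.942 to 0.950%, counting error only) against 0.00324 to 0.0555% in the others. Among the other 11 libraries the highest share was in Pias3+/+ replicate 2 at P21 and the lowest in Pias3+/+ replicate 1 at 18 months. Reads without molecular identifiers are not independent molecules, so these intervals cover counting only.

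The α-crystallins come first. Cryaa, the lens α-crystallin, was at 37.3, 176 and 73.6 CPM in P21 Pias3+/+ replicates 1 to 3 and at 35.3, 16.2 and 3.98 CPM in P21 Pias3-/- replicates 1 to 3. At 18 months it was at 2.68, 5.32 and 26.1 CPM in Pias3+/+ and at 6.46, 4747 and 33.0 CPM in Pias3-/-. The P21 groups did not overlap, whereas at 18 months the Pias3+/+ range and the pair of Pias3-/- libraries other than replicate 2 did. In replicate 2 Cryaa was 27.0 times the highest of the other 11 libraries, and 144 times the highest of the others at 18 months.

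Cryab, the α-crystallin that is made well beyond the lens, had the narrowest range. It was at 45.6, 82.6 and 53.9 CPM in P21 Pias3+/+ and at 41.5, 28.5 and 38.9 CPM in P21 Pias3-/-. At 18 months it was at 27.7, 36.0 and 45.6 CPM in Pias3+/+ and at 38.4, 1689 and 52.0 CPM in Pias3-/-. With replicate 2 left aside, its highest library was 2.90 times the lowest at P21 and 1.88 times at 18 months. For the other 9 members the same ratio at P21 was between 10.8 and 44.2. Cryab was at 38.9 CPM where Cryaa was at 3.98 CPM, and at 27.7 CPM where Cryaa was at 2.68 CPM, which are the lowest Cryaa values of each age.

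**Figure D1:**
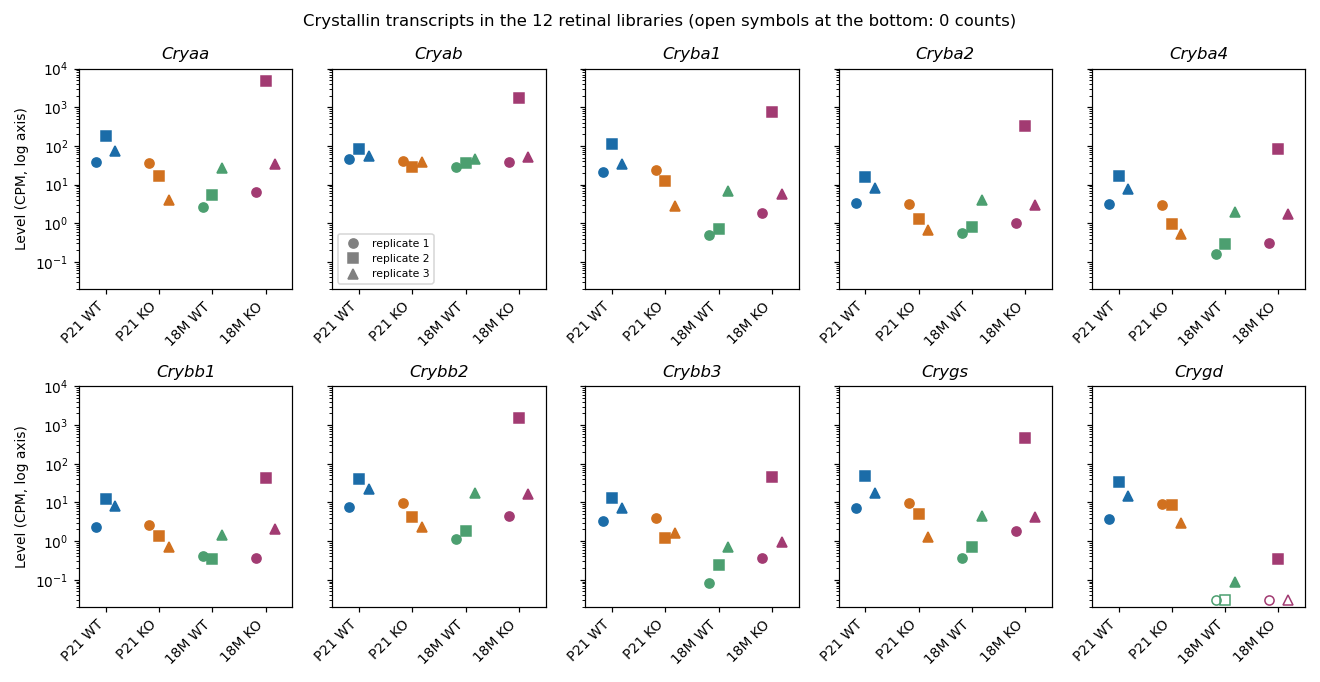
Level of each of the 10 crystallins in the 12 libraries, in CPM on a log axis, grouped by age and genotype, with 1 symbol per library and its shape giving the replicate. Pias3-/- replicate 2 at 18 months (square, last column) lies above the other 11 libraries for 9 genes, and Crygd, at 7 counts there, is the exception.

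Of the acidic β-crystallins, Cryba1 had the highest counts. Cryba1 was at 20.8, 112 and 34.3 CPM in P21 Pias3+/+ and at 24.1, 12.3 and 2.77 CPM in P21 Pias3-/-. At 18 months it was at 0.486, 0.702 and 6.87 CPM in Pias3+/+ and at 1.81, 740 and 5.70 CPM in Pias3-/-. The P21 genotypes overlapped through Pias3-/- replicate 1, and every other 18-month library than Pias3-/- replicate 2 was lower than P21 Pias3+/+. Cryba2, an acidic β-crystallin, was at 3.41, 16.0 and 7.95 CPM in P21 Pias3+/+ and at 3.15, 1.32 and 0.649 CPM in P21 Pias3-/-. Its 18-month values were 0.567, 0.819 and 4.09 CPM in Pias3+/+ and 1.03, 326 and 2.92 CPM in Pias3-/-. Cryba2 separated the P21 genotypes by a small margin, and 18-month Pias3+/+ replicate 3 reached into the P21 range. Cryba4 was at 3.07, 16.8 and 7.90 CPM in P21 Pias3+/+ and at 2.94, 0.944 and 0.519 CPM in P21 Pias3-/-. At 18 months Cryba4 had 4, 5 and 22 counts in Pias3+/+ and 5, 1720 and 37 counts in Pias3-/-, so 3 of the 5 other libraries of that age rest on at most 5 reads.

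The basic β-crystallins were likewise highest in Pias3-/- replicate 2 at 18 months and, of the rest, in Pias3+/+ replicate 2 at P21. Crybb1 was at 2.29, 12.4 and 8.16 CPM in P21 Pias3+/+ and at 2.66, 1.32 and 0.692 CPM in P21 Pias3-/-. At 18 months Crybb1 had 10, 6 and 17 counts in Pias3+/+ and 6, 892 and 42 counts in Pias3-/-. Pias3-/- replicate 1 at P21 lay above Pias3+/+ replicate 1, so the genotypes overlapped. Crybb2, a basic β-crystallin of the mature lens, was at 7.82, 40.7 and 22.9 CPM in P21 Pias3+/+ and at 9.95, 4.21 and 2.29 CPM in P21 Pias3-/-. At 18 months it was at 1.13, 1.81 and 17.3 CPM in Pias3+/+ and at 4.59, 1562 and 16.7 CPM in Pias3-/-. Crybb2 had the largest ratio of Pias3-/- replicate 2 to the highest other library among the members, 38.4, and its ages overlapped in Pias3+/+. Crybb3 was at 3.29, 12.9 and 7.26 CPM in P21 Pias3+/+ and at 3.86, 1.20 and 1.64 CPM in P21 Pias3-/-. At 18 months Crybb3 had 2, 4 and 8 counts in Pias3+/+ and 6, 945 and 20 counts in Pias3-/-. Apart from replicate 2, every 18-month library was lower for Crybb3 than every P21 library, which held for no other member than Crygd.

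The 2 γ-crystallins parted from each other. Crygs, the γ-crystallin of later lens fibres, was at 7.09, 47.7 and 17.1 CPM in P21 Pias3+/+ and at 9.62, 4.91 and 1.30 CPM in P21 Pias3-/-. At 18 months it was at 0.365, 0.702 and 4.52 CPM in Pias3+/+ and at 1.81, 453 and 4.27 CPM in Pias3-/-, so it was high in replicate 2 like the α- and β-crystallins. Crygd, a γ-crystallin of early lens fibres, had 66, 481 and 282 counts in P21 Pias3+/+ and 163, 133 and 67 counts in P21 Pias3-/-. At 18 months Crygd had 0, 0 and 1 counts in Pias3+/+ and 0, 7 and 0 counts in Pias3-/-. A count of 0 allows up to 3 counts, which is 0.117 to 0.258 CPM in these libraries. Crygd in Pias3-/- replicate 2 was thus at 0.0102 times its highest value elsewhere, the only member below 1 on that ratio.

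The other γ-crystallins of the chromosome 1 cluster, which were fixed as a list of their own and are no members, had the pattern of Crygd. Crygb, the most abundant of them, had 75 to 525 counts in the P21 libraries, at most 2 in the 18-month libraries other than Pias3-/- replicate 2, and 10 in that library. Crygc had 65 to 375 counts at P21 and 12 in Pias3-/- replicate 2. Cryge and Crygf were detected in all 6 P21 libraries and had 0 counts in all 6 libraries at 18 months, replicate 2 included. Crygn, a relative outside the cluster, had 60 counts in Pias3-/- replicate 2 and 0 to 12 elsewhere. Of the genes named crystallin that are enzymes or hormone-binding proteins, Crym and Cryz were at 0.622 and 0.767 times their highest value elsewhere, and Cryzl1 at 1.06 times.

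The sequences before the starts of these genes are shown because the members moved together in most libraries and because Crygd left that pattern at 18 months. RefSeq promoter windows (GRCm38.p6) were found for 9 of the 10 members, all but Cryab, and the 250 bases before the annotated start were searched on both strands for 4 motifs. In the following windows, both 5′ to 3′ on the minus strand, capitals mark the core of Maf binding sites TGCTGA, the TATA box TATAAA and the Sox core AACAAT, on whichever strand they were read. The windows are chr11:77725294-77725543 for Cryba1 and chr16:22811411-22811660 for Crygs.
Cryba1: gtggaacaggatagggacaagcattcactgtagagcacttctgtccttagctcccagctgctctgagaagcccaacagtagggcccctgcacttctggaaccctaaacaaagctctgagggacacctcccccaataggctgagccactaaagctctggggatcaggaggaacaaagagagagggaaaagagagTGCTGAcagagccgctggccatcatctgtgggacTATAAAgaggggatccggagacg
Crygs: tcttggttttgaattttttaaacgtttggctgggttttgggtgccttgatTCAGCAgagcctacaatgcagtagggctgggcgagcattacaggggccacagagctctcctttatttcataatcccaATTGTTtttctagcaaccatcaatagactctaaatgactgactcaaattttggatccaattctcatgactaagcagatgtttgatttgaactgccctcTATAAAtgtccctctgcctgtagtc

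The Maf core TGCTGA was in the windows of 7 of the 9 members (Cryaa, Cryba1, Cryba2, Cryba4, Crybb1, Crybb3 and Crygs) and in 16.1% of all 32851 windows of that length. Cryba4 held it 3 times. TATAAA was in the windows of Cryba1, Crybb1 and Crygs, and in 12.4% of all windows. AACAAT was in those of Crybb1, Crygd and Crygs, and in 9.42% of all windows. The heat shock element GAANNTTC was in none of the 9 and in 6.69% of all windows. These are matches of letters and no measured sites.

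Within the γ cluster the windows of Crygd, Cryge and Crygf resemble each other. In the pair below, 5′ to 3′ on the minus strand at chr1:65063441-65063690 for Crygd and chr1:65051164-65051413 for Cryge, capitals mark a run of 33 bases that these genes share with Crygf and that occurs in 3 windows of the whole table.
Crygd: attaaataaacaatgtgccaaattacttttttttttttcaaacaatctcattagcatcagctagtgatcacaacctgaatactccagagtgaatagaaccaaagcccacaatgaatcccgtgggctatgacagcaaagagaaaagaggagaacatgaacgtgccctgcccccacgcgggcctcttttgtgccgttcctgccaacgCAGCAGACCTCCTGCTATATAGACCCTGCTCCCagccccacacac
Cryge: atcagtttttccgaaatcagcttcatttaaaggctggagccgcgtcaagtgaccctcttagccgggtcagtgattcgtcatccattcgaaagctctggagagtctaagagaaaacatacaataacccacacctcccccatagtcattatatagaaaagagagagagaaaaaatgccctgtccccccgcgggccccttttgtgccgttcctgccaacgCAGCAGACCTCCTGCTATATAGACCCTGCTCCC

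The longest run that Crygd and Cryge share in these windows is 56 bases, and that of Crygd and Crygf is 45. With Crygc it shares 18, and with Cryga and Crygb at most 8. With the windows of the other members Crygd shares at most 11 bases, with Crybb1. The Crygd run starts 45 bases before the annotated start and that of Cryge 33 bases before.

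Compared per length, as FPKM (the CPM divided by the gene's counted length in kilobases), the order of the members changed with age and in replicate 2. In P21 Pias3+/+ the order began with Cryba1 at 81.3 ± 71.7 FPKM (SD, n = 3), Cryaa at 78.7 ± 59.2 FPKM and Cryab at 49.5 ± 15.9 FPKM. It ended with Crybb3 at 9.42 ± 5.80 FPKM and Crybb1 at 8.72 ± 5.80 FPKM. No neighbours in that order had ranges apart. In P21 Pias3-/- Cryab led at 29.6 ± 5.61 FPKM, before Cryba1 at 19.1 ± 15.6 FPKM and Cryaa at 15.2 ± 13.0 FPKM, again with overlapping neighbours.

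At 18 months Cryab led in Pias3+/+ at 29.7 ± 7.29 FPKM, with its range above that of the next gene, Cryaa, at 9.36 ± 10.6 FPKM. Crybb2 followed at 9.33 ± 12.6 FPKM, and Crygd was last at 0.0457 ± 0.0791 FPKM. All neighbours below Cryab in this order overlapped. In Pias3-/- replicates 1 and 3 Cryab was at 36.9 FPKM and Cryaa at 16.3 FPKM, also with ranges apart. In Pias3-/- replicate 2 the order was Cryaa (3910 FPKM), Crybb2 (2157 FPKM), Cryab (1378 FPKM), Cryba1 (1083 FPKM), Crygs (640 FPKM) and Cryba2 (453 FPKM), followed by Cryba4 at 111 FPKM. Below them were Crybb3 at 55.3 FPKM, Crybb1 at 49.5 FPKM and Crygd at 0.534 FPKM.

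Ratios within a library do not depend on scaling, and they showed which parts of the mixture differed by age. Cryba1 had 46.6 to 75.9 counts per 100 counts of Cryaa in the 6 P21 libraries and 13.2 to 28.0 in the 5 libraries at 18 months other than Pias3-/- replicate 2. The library of replicate 2 had 15.6, within the 18-month range and below every P21 library. Cryga to Crygf together had 41.9 to 401 counts per 100 of Cryaa at P21, at most 3.03 at 18 months in the 5 others, and 0.0296 in replicate 2. Crybb3 and Crygd were the other members whose ratios to Cryaa did not overlap between the ages.

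Other ratios placed replicate 2 outside the range of both ages. Cryba4 had 5.84 to 13.0 counts per 100 of Cryaa at P21, 4.67 to 7.33 at 18 months and 1.75 in replicate 2. Crybb1 had 6.14 to 17.4 at P21, 5.61 to 15.2 at 18 months and 0.910 in replicate 2. Crygs had 19.0 to 32.6 at P21, 12.9 to 28.0 at 18 months and 9.54 in replicate 2. These members were thus lower beside Cryaa in that library than in any other. Crybb2, with 32.9 per 100 of Cryaa in replicate 2, was within its P21 range of 21.0 to 57.6 and just below its 18-month range of 34.1 to 71.0.

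Cryab varied least in level, so that its share of the members' counts differed widely between libraries. It made up 82.5% of the members' counts in Pias3+/+ replicate 1 at 18 months (exact 95% interval 79.7 to 85.0%) and 15.0% in Pias3+/+ replicate 2 at P21 (14.3 to 15.8%). In Pias3-/- replicate 2 at 18 months it made up 17.4% (17.3 to 17.6%). Between that library and Pias3-/- replicate 1, Cryab differed by 1651 CPM where Cryaa differed by 4740 CPM, that is by 34.8 per 100. Between P21 Pias3+/+ replicates 2 and 1 the same differences were 37.1 and 139 CPM, or 26.8 per 100. Between libraries with smaller differences it was 51.3 per 100 (18-month Pias3-/- replicates 3 and 1) and 67.8 per 100 (P21 Pias3-/- replicates 1 and 2). The libraries poorest in Cryaa were thus those in which Cryab was most of the crystallin signal.

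**Figure D2:**
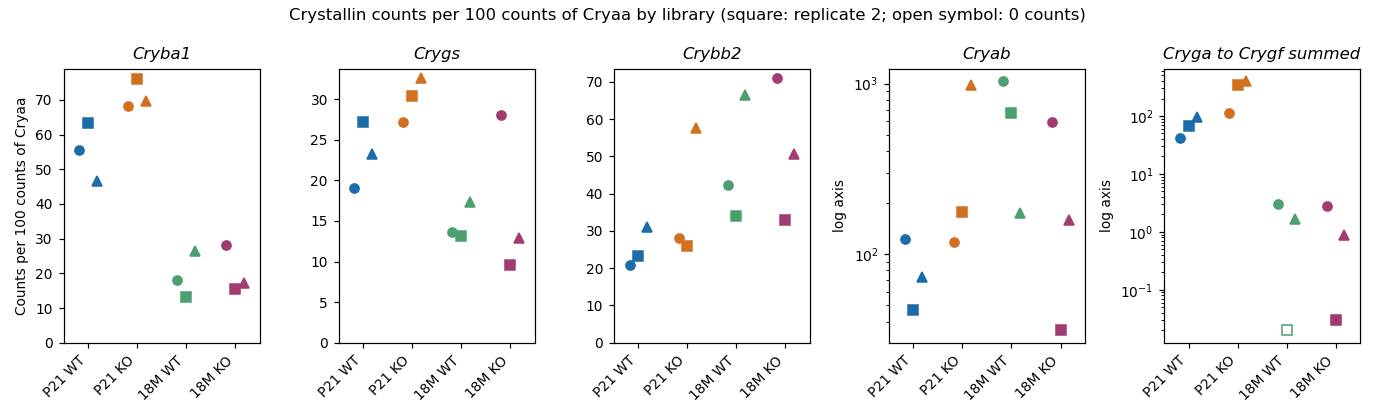
Counts of Cryba1, Crygs, Crybb2, Cryab and the summed Cryga to Crygf per 100 counts of Cryaa in each library (linear axes for the first 3 panels, log axes for the last 2), by age and genotype with the shape giving the replicate (circle 1, square 2, triangle 3). For Cryba1 the P21 libraries lie at 46.6 to 75.9 and all 18-month libraries at 13.2 to 28.0.

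The markers of other eye tissues were raised in part in Pias3-/- replicate 2. Of 13 lens fibre markers that are no crystallins, 8 were higher there than in all other libraries and 7 by over 2 times. Mip, the water channel of lens fibres, had 1936 counts there and 0 to 19 elsewhere, which is 71.8 times the highest other CPM. Gja3, a gap junction gene of lens fibres, had 392 counts there and 0 to 5 elsewhere. The markers Tdrd7 and Caprin2, at 311 to 481 and 15.6 to 29.9 CPM in the other libraries, were at 0.972 and 0.824 times their highest value elsewhere. The fibre nuclease Dnase2b, at 2 counts, and Birc7, at 1 count, were near 0 there.

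Of 4 lens epithelium markers, Foxe3 had 9 counts in replicate 2 and 0 in all 11 other libraries. Pitx3, a lens transcription factor, had 17 there and at most 1 elsewhere, and Cdh1 346 against at most 35. Mab21l1, the fourth, was at 0.966 times its highest value. The summed lens fibre list was at 342 to 522 CPM in the 11 other libraries, set mostly by Tdrd7, and at 713 CPM in replicate 2. Their part in the levels of the crystallins was not tested.

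Some pigmented and ciliary tissue markers were raised in that library. Of 12 pigment epithelium markers, 4 were above all other libraries, among them the melanosome genes Tyrp1 and Mlana at 2.44 and 7.46 times their highest value elsewhere, while the melanosome genes Pmel and Slc45a2 were at 0.745 and 0.334 times. Most of the highest values elsewhere were in P21 libraries, and beside its own age Pmel was raised, with 251 counts there and 10 to 15 in the other 18-month libraries. Ttr and Rgr were at 0.120 and 0.187 times their highest value, which was in a P21 library, but with 269 and 359 counts they were not below 18-month Pias3-/- replicate 1, which had 209 and 265. Of 10 ciliary body and iris markers, 5 were above all other libraries, led by Msx1 at 11.3 times and Optc, the gene of a vitreous glycoprotein made by the ciliary body, at 8.32 times. Wnt2b, the other abundant gene of this list, was at 0.244 times, and with 68 counts was close to the other Pias3-/- libraries at 18 months (71 and 72). Of 7 cornea markers, 2 were above all other libraries. Aldh3a1, an enzyme abundant in cornea, had 3058 counts there, 59 in Pias3-/- replicate 3 and at most 9 in the other 10 libraries, and Lum had 9 counts against at most 6 elsewhere. Kera was at 0 in every library. Col17a1 was at 0.278 times its highest value. Tyr, Tyrp1, Dct, Pmel and Mlana together were at 143 CPM in that library, at 4.65 to 14.2 CPM in the other 18-month libraries and at most at 68.2 CPM at P21. The summed visual cycle genes were at 29.0 CPM in that library, at 26.7 CPM in 18-month Pias3-/- replicate 1 and at 21.3 CPM in P21 Pias3-/- replicate 1.

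Neural retina markers were mostly not raised in that library. The cone gene Opn1mw was below all other libraries there, at 130 CPM against 143 to 373 CPM. So was the Müller glia gene Slc1a3, at 165 CPM against 177 to 213 CPM. None of 6 rod, 6 cone or 6 ganglion cell markers was above all other libraries in Pias3-/- replicate 2, and the abundant ones Gnat1, Sag and Opn1sw were at 0.881, 0.892 and 0.929 times their highest value. The rod genes Pde6b and Cnga1 were at 0.907 and 0.921 times, the cone genes Arr3 and Gngt2 at 0.792 and 0.851 times, and the ganglion cell genes Pou4f1, Slc17a6, Nefl and Thy1 at 0.843, 0.657, 0.607 and 0.591 times. Of 6 Müller glia markers, Dkk3 was, at 1.07 times, and Glul was at 0.882 times. Of 9 reactive glia genes, 3 were above all other libraries. Serpina3n was at 2.41 times, Vim, an intermediate filament gene also used in lens, at 1.75 times and C3 at 1.46 times. Stat3 was at 0.843 times. Among 7 genes with Hspb names, Hspb2, which overlaps Cryab, had 56 counts against 2 to 7 elsewhere. The unlinked Hspb6, the most abundant, was at 0.745 times and Hspb1 at 1.01 times. None of 10 heat shock response genes was above all other libraries, with Hspa8 at 0.999, Hsph1 at 0.985 and Hsp90aa1 at 0.849 times their highest value. Of 12 transcription factors known to act on crystallin genes, 4 were above all other libraries. Among them were Sox1 (51 counts against at most 2), Pitx3 (17 against at most 1) and Foxe3 (9 against 0). The retinal factors Pax6 and Prox1 were at 0.916 and 0.938 times.

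**Figure D3:**
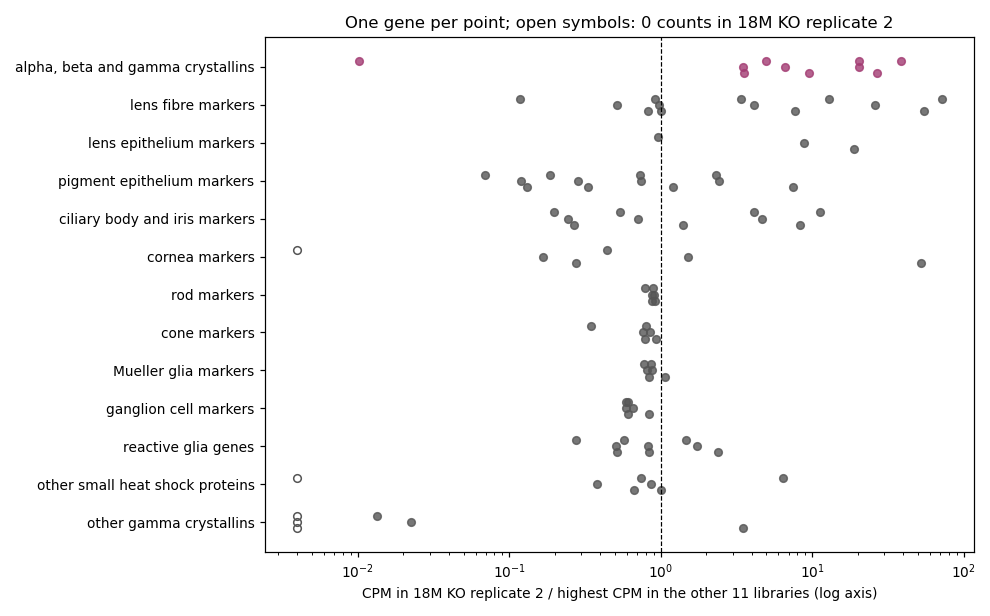
Ratio of the CPM in Pias3-/- replicate 2 at 18 months to the highest CPM among the other 11 libraries (log axis), 1 point per gene, for the 10 members (top row) and the marker lists; genes at 0 in all 11 others are left out. Of the members, 9 lie at 3.49 to 38.4 and Crygd at 0.0102, while rod and cone markers lie below 1.

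Outside the members and the lists, the genes with the largest such ratio were Rspo1 (51.2 times, 184 counts), Esyt3 (35.6 times, 141 counts) and Car9 (34.6 times, 58 counts). Elsewhere these had at most 3, 4 and 2 counts, so the ratios are rough. Gstm2, Best2, Wnt7a, Mfap4, Col6a3, Fbln1 and Gm5607 followed, at 27.8 to 18.0 times. Rspo1 encodes a secreted enhancer of Wnt signalling, Best2 a channel of the ciliary epithelium, and Mfap4, Col6a3 and Fbln1 encode matrix proteins. Of 12641 genes with at least 50 counts in that library, 161 were over 2 times the highest of the other libraries, 1.27%. In the other 11 libraries the same count was 0 to 12 genes. All 9 members with 50 counts were among the 161.

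At P21 all 10 crystallins were lower in Pias3-/- than in Pias3+/+ retina in the fitted values, and none passed the test. The fold changes of edgeR's quasi-likelihood fit ranged from -2.67 (Cryba4) to -0.74 (Cryab) on the log2 scale with a median of -2.16, against a median of 0.00126 over all 12109 genes tested. Called were genes with a false discovery rate (FDR) of at most 0.05 and a change of 1.5-fold, which 0 of 10 members and 0.818% of all genes met. Without P21 Pias3+/+ replicate 2 alone, the values lay between -1.93 (Cryba4) and -0.46 (Cryab), with Cryba1 at -1.09, Crygs at -1.22 and Crygd at -0.50, and 0 members were called. Without P21 Pias3-/- replicate 1 they were further from 0, with Cryba4 at -3.69, Cryaa at -3.28 and Cryba2 at -3.25, again with 0 called. With all libraries Cryaa fell short of a call at -2.38 ± 0.79 (SE, 3 libraries per genotype, FDR = 0.190). Cryba2 had the lowest FDR of the members, 0.137, at -2.43 ± 0.67. Cryab, at -0.74 ± 0.24, had an FDR of 0.175, and Crygd, at -1.37 ± 0.72, one of 0.388.

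Other rules called some of them. At an unadjusted p under 0.05, 9 of 10 members passed, all but Crygd, against 16.8% of all genes. DESeq2's Wald test called 3 members (Cryab, Crybb1 and Crybb3) and 1.88% of all genes, and edgeR's likelihood ratio test called 6 (Cryaa, Cryba2, Cryba4, Crybb1, Crybb2 and Crybb3) and 2.14%. Every P21 Pias3-/- library was below every Pias3+/+ library for 4 members (Cryaa, Cryab, Cryba2 and Cryba4) and for 13.3% of all genes. In bulk retina, fewer cells of a type and less RNA per cell cannot be told apart.

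The members had the same highest library at P21. Pias3+/+ replicate 2 was the highest P21 library for all 10 members and Pias3-/- replicate 3 the lowest for 8. The lens membrane and fibre genes Mip, Lim2, Gja3 and Grifin together had 12, 54 and 31 counts in Pias3+/+ and 13, 6 and 16 counts in Pias3-/-. They were likewise highest in Pias3+/+ replicate 2 (3.71 CPM), but lowest in Pias3-/- replicate 2 (0.377 CPM), and Pias3-/- replicate 3 (0.692 CPM) was level with Pias3+/+ replicate 1 (0.670 CPM). The pigment epithelium genes Rpe65, Rgr, Lrat and Rdh5 summed to 169, 172 and 123 CPM in Pias3+/+ and to 21.3, 151 and 40.6 CPM in Pias3-/-. The melanosome genes Tyr, Tyrp1, Dct, Pmel and Mlana, of the same list, summed to 68.2, 43.7 and 57.7 CPM in Pias3+/+ and to 24.4, 63.0 and 34.6 CPM in Pias3-/-. Both pigment sums were lowest in Pias3-/- replicate 1, which is not the lowest library of the members. Of 3 ciliary body and iris markers tested, 1, Wnt2b, was called lower in Pias3-/- (-1.56 ± 0.14, FDR = 0.00801). The others, Optc (0.27 ± 0.15, FDR = 0.411) and Tagln (0.81 ± 0.23, FDR = 0.148), were fitted higher and not called. The summed rod markers, genes of the rod light response, were at 24575 to 26247 CPM in Pias3+/+ and at 18095 to 18656 CPM in Pias3-/-, and 1 of 6, the rod transducin gene Gnat1, was called lower (-0.63 ± 0.07, FDR = 0.0163). The part of any of these in the genotype difference was not tested.

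The P21 libraries also differed in sex-linked transcripts, which the labels do not give. Pias3+/+ replicate 2 and Pias3-/- replicates 1 and 2 had counts of the Y-linked Ddx3y, 984 to 1354, and the other 3 had 0. Within the libraries with Ddx3y all 10 members were lower in both Pias3-/- libraries than in the Pias3+/+ one, and within those without it all 10 were lower in the Pias3-/- library than in both Pias3+/+ ones. The same held for 30.7% and 41.0% of 12063 genes. Each split has 1 library on one side. The first count follows from Pias3+/+ replicate 2 being the highest P21 library of all 10 members. The second rests on Pias3-/- replicate 3, mostly their lowest P21 library. Neither count can part sex from genotype. The part of sex in the genotype difference was not tested.

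At 18 months, with Pias3-/- replicate 2 left out, no member passed the test between genotypes. The FPKM filter kept 8 members, all but Crybb3 and Crygd. Crybb1 passed it only through Pias3-/- replicate 3 (2.31 FPKM, against at most 1.69 FPKM in Pias3+/+), so the filter favoured a value above 0 for it. All 8 fitted values were above 0, from 0.30 (Cryab, ± 0.20 SE, FDR = 0.581) to 0.95 (Crygs, ± 0.81 SE, FDR = 0.652), where the median over all 11914 genes was 0.0143. Cryaa was at 0.89 ± 0.85 (FDR = 0.682). Called were 0 of 8 members and 0.302% of all genes. At an unadjusted p under 0.05 the shares were 0 of 8 and 10.7%, with DESeq2 0 of 8 and 0.739%, and with the likelihood ratio test 0 of 8 and 0.940%. With the replicate number as a block Cryaa was called (0.61 ± 0.15 SE, FDR = 0.00175), in a fit with few residual degrees of freedom.

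For 5 of the 8 members the sign turned when 1 more library was left out. Without Pias3-/- replicate 3, which leaves 1 Pias3-/- library whose spread is assumed to be like that of the others, Cryaa was at -0.71, Cryba1 at -0.34, Cryba2 at -0.62, Cryba4 at -1.05 and Crybb2 at -0.40. Cryba2 was also below 0 without Pias3+/+ replicate 1 (-0.22) and without Pias3+/+ replicate 2 (-0.05). Cryab (0.08 to 0.49) and Crygs (0.20 to 2.56) stayed above 0 in every omission, as did Crybb1 (0.52 to 1.65) in those where it passed the FPKM filter. With Pias3-/- replicate 2 set aside, the libraries of replicate 3 were the highest of their group at this age, in both genotypes, for every member but Crygd.

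Age gave the clearest difference. In Pias3+/+ retina 9 of 10 members were called lower at 18 months than at P21, against 7.99% of all 12109 genes called and 4.29% called lower. Crybb1, Crybb3 and Crygd were at most at 1.69, 0.840 and 0.137 FPKM in 18-month Pias3+/+. They passed the FPKM filter only through P21 libraries, so the filter favoured a lower value at 18 months. Cryba1 fell by 4.73 ± 0.82 on the log2 scale (SE, 3 libraries per age, FDR = 0.00203), from 55.5 ± 49.0 to 2.69 ± 3.63 CPM (SD). Crybb3 fell by 4.80 ± 0.65 (FDR = 0.000470). Cryaa fell by 3.26 ± 0.72 (FDR = 0.00702), from 95.6 ± 71.9 to 11.4 ± 12.8 CPM, and Cryab fell by 0.75 ± 0.22 (FDR = 0.0256), from 60.7 ± 19.5 to 36.4 ± 8.93 CPM. Crybb2, at -2.03 ± 0.81, was not called (FDR = 0.0811). The median over the members was -3.70, beside 0.0129 over all genes.

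The other called members apart from Crygd, which is described with the γ cluster, lay between these values. On the log2 scale Crygs was at -3.99 ± 0.82, Cryba4 at -3.87 ± 0.76, Crybb1 at -3.54 ± 0.65 and Cryba2 at -2.54 ± 0.67 (FDR = 0.00486, 0.00383, 0.00260 and 0.0167). In all, 7 members had every 18-month Pias3+/+ library below every P21 one, as 22.5% of all genes did. The exceptions were Cryab, Cryba2 and Crybb2. Without Pias3+/+ replicate 3 at 18 months, which held the highest crystallins of its group, 10 members were called and Crybb2 was at -4.03, Cryba1 at -6.55, Cryaa at -4.63 and Crygs at -5.52. Without P21 Pias3+/+ replicate 2 the same values were -1.41, -3.69, -2.46 and -3.01. The call of Cryaa was lost without Pias3+/+ replicate 2 at 18 months (-2.92, FDR = 0.0509). The calls of Cryab and Cryba2 were lost without P21 Pias3+/+ replicate 2 or either of 18-month Pias3+/+ replicates 1 and 2. P21 Pias3+/+ replicate 2 was the only one of these 6 libraries with more than 1 count of Ddx3y, and without it 7 members were called.

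The γ-cluster fell furthest with age. Crygd had 829 counts in the 3 P21 Pias3+/+ libraries and 1 in the 3 at 18 months, a ratio per total count of 884 (exact 95% counting interval 158 to 34939), and was called (FDR = 0.000503). Of the other list of β- and γ-crystallins, 5 of 5 genes tested were called lower. These 5, like Crygd, passed the FPKM filter only through P21 libraries, so the filter set their direction. Crygb had a ratio of 250 (97.3 to 919), and Cryge, with 558 and 0 counts, was at least 198-fold lower at 18 months, taking 3 counts over the group as the floor. Crygf, by the same floor, was at least 59.3-fold lower. Crygs, with 1141 and 73 counts, had a ratio of 16.7 (13.1 to 21.4), so the γ-crystallin of later fibres fell by far less than those of the cluster.

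Other lists moved with age beside the members. Of the lens fibre markers 6 were tested, of which Bfsp2, a beaded filament gene, was called lower (-2.71 ± 0.46, FDR = 0.00188) and Hsf4, a heat shock factor that acts on lens genes, was called higher (1.00 ± 0.19, FDR = 0.00310). All 8 pigment epithelium markers tested were called lower, as were both ciliary body and iris markers tested, Optc (-1.88 ± 0.19, FDR = 6.34e-05) and Wnt2b (-0.75 ± 0.13, FDR = 0.00197). Of 10 heat shock response genes 3 were called higher, and of 4 tested genes with Hspb names 1, Hspb11, was called lower. Of 8 transcription factors known to act on crystallin genes, Hsf4 alone was called. The pigment epithelium markers, the ciliary markers and Bfsp2 were thus lower in the older libraries like the crystallins, Hsf4 was higher, and the 6 tested lens fibre markers, which include the retina-expressed Tdrd7 and Caprin2, had a median of 0.09 on the log2 scale. Mip, Lim2, Gja3 and Grifin together were at 0.670 to 3.71 CPM in P21 Pias3+/+ and, with 10, 6 and 11 counts, at 0.351 to 0.957 CPM at 18 months. The part of these lists in the age difference was not tested.

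In Pias3-/- retina, compared between ages without replicate 2 at 18 months, 1 of 10 members was called. The background was 5.63% of 12171 genes called and 2.45% called lower. The called member was Crygd, with 363 counts at P21 and 0 at 18 months, which is at least 87.0-fold lower (FDR = 0.0239). Of the 9 others, 5 were fitted below 0 on the log2 scale, from -1.78 ± 0.91 (SE) for Cryba1 and -1.73 ± 0.66 for Crybb3 to -0.34 ± 0.78 for Crybb1. The other 4 lay between 0.08 ± 0.93 for Cryaa and 0.95 ± 0.71 for Crybb2, with Cryab at 0.30 ± 0.20. This comparison was added after the data had been seen. Crygb, of the list of other β- and γ-crystallins, was at least 147-fold lower, and 4 of 5 genes of that list were called. Those 5 genes, Crygd and Crybb3 passed the FPKM filter only through P21 libraries, so the filter favoured a lower value at 18 months.

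The difference between the genotypes in their age change was tested itself, without Pias3-/- replicate 2 at 18 months. No member was called by FDR among 12349 genes (0.138% of all genes were). The fitted differences were between 1.05 (Cryab, ± 0.36 SE, FDR = 0.420) and 3.44 (Cryba4, ± 1.47 SE, FDR = 0.557) for the 9 members other than Crygd, all above 0, that is with a less negative age change in Pias3-/-. Without 18-month Pias3-/- replicate 3 they were smaller for all of them, with Cryba4 at 1.63, Cryaa at 1.68, Crybb2 at 1.72, Cryba1 and Cryba2 at 1.82 and Crybb1 at 1.47. Without P21 Pias3+/+ replicate 2 Cryba1 was at 1.85, and without 18-month Pias3+/+ replicate 3 Cryba1 was at 4.81 and Crybb2 at 5.02. For Crygd, with 0 counts in both Pias3-/- libraries at 18 months, the fitted value has no meaningful sign and is not read. At an unadjusted p under 0.05, 7 of 10 members and 8.49% of all genes passed. DESeq2 called 0 members and 1.03% of all genes, and the likelihood ratio test 0 members and 0.761%.

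**Figure D4:**
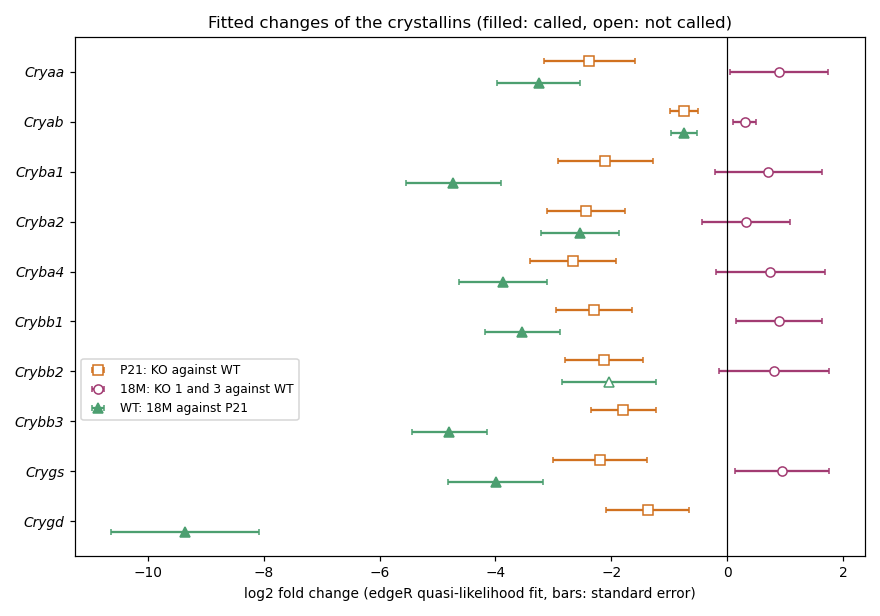
Fitted log2 fold changes of the members with standard errors for Pias3-/- against Pias3+/+ at P21, for the same at 18 months without Pias3-/- replicate 2 (8 members), and for 18 months against P21 in Pias3+/+, with filled symbols for called members. The P21 genotype values lie between -2.67 and -0.74 without a call, and 9 of the 10 age values are called. Of these, Crybb1, Crybb3 and Crygd passed the FPKM filter only through P21 libraries.

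The spread within groups was wide for all members but Cryab. With replicate 2 left out, the SD of log2 CPM within groups was 0.94 to 1.55 for the 9 others and 0.36 for Cryab, beside a median of 0.15 over 12448 genes. For Cryba1, the member with the widest spread, 99.95% of genes varied less, and for Cryab 93.1% did. Over the 11 libraries the median correlation of a member's log2 CPM with the other members was 0.74 (Crygd) to 0.96 (Cryba4), and 0.81 for Cryab. These libraries span both ages and genotypes, so the correlations are a description.

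The genes most like the members over the same 11 libraries were Glp2r (r = 0.915), Adra2a (0.911), Glud1 (0.902), Fhdc1 (0.891) and Pdc (0.885), out of 12403 genes with at least 50 counts on average. Pdc, the photoreceptor protein phosducin, had 27902 to 74913 counts, and Glp2r 36 to 113. Most lens marker genes, among them Mip, Lim2, Gja3, Grifin, Bfsp1, Bfsp2 and Lgsn, were below that mean and could not be ranked.

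**Figure D5:**
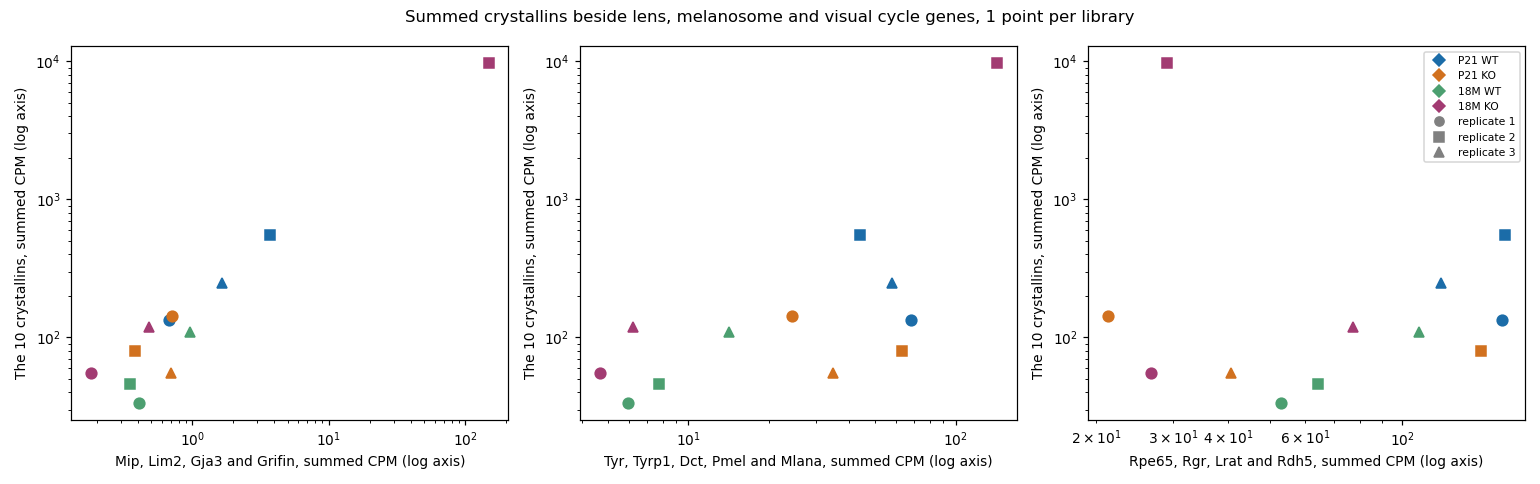
Summed CPM of the 10 crystallins (vertical log axis) against the summed CPM of 4 lens genes (left), of 5 melanosome genes (middle) and of 4 visual cycle genes of the pigment epithelium (right), 1 symbol per library, with colour giving the group and shape the replicate. Pias3-/- replicate 2 at 18 months lies at 149 CPM of the lens genes, where the other 11 libraries lie at 0.181 to 3.71 CPM, at 143 CPM of the melanosome genes, above the others (4.65 to 68.2 CPM), and at 29.0 CPM of the visual cycle genes, within the range of the others (21.3 to 172 CPM).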

How the data were processed

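Retinal RNA of 4 groups (Pias3+/+ and Pias3-/- at P21 and at 18 months, 3 libraries each) was analysed from the gene counts deposited by the authors. Per the labels and the study's methods, stranded paired-end reads were aligned to mm10 with TopHat2 2.1.1 and counted with featureCounts, and only RNA of high integrity was used. The authors' own comparison tables hold fold changes, p-values and FDRs and were not used. Gene lengths of the count table gave FPKM. The total per library, 11607155 to 25622505 counts, puts 3 counts at 0.117 to 0.258 CPM.

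Members and lists were chosen with earlier results of these data known. Groups came from the sample labels. Each comparison was fitted across all genes with FPKM of at least 2 in 1 or more of its libraries, with edgeR 4.0.16 (TMM factors, quasi-likelihood test, Benjamini-Hochberg adjustment over all genes tested), in R 4.3.3. The P21 genotype and the age comparison in Pias3+/+ used 6 libraries each. The 18-month genotype comparison (5 libraries) and the interaction (11 libraries) left out Pias3-/- replicate 2, whose values had chosen the members. A gene was called at an FDR up to 0.05 where it also changed 1.5-fold (FDR alone for the interaction). Scripts were tested on simulated data. DESeq2 1.42.0, the likelihood ratio test, other scalings, other filters, a replicate block and leaving out each library were the alternatives. Levels are TMM-scaled CPM over the 12 libraries. SDs and p-values measure the spread between pools of retinas, 3 per group, or fewer where a library was left out, as with 18-month Pias3-/- replicate 2.

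All 10 members were named. Of each list, the 2 genes with the highest mean CPM and the 2 with the largest ratio of Pias3-/- replicate 2 at 18 months to the highest other library were named, and of all other genes with at least 50 counts there the 10 with the largest ratio. Further list genes (Foxe3, Dnase2b, Birc7, Kera, Bfsp2, Hsf4, Pmel, Slc45a2, Tagln, Opn1mw, Slc1a3, C3, the summed sets of 4 lens, 5 melanosome and 4 visual cycle genes, Cryge, Crygf) were named after their values had been seen. Motifs were searched by exact letters in RefSeq windows, and 31-base words were compared over GENCODE M21 transcripts. Of the marker lists, 2 genes are not reported here and were left out of the list counts and sums.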

Additional observations from a re-analysis of the deposited data

How the results depend on the processing

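The number of members called stayed at 0 in the P21 genotype comparison under the other scalings, filters, sample sets and single-library omissions, with DESeq2 (3 called) and the likelihood ratio test (6 called) as the exceptions. All 160 alternative values of single members there were below 0. Over all genes that comparison gave 99 calls in the main fit, 65 with library size alone, 149 without the FPKM filter, and 6 to 340 with 1 library left out. At 18 months without Pias3-/- replicate 2, leaving out another library gave 0 members called throughout, as did adding replicate 2 back. Over all genes the 18-month comparison gave 36 calls, 110 without the FPKM filter and 8 to 115 with 1 more library left out. In Pias3+/+ with age, 6 to 10 members were called with 1 library left out, 7 with DESeq2 and 8 with 11 libraries in 1 fit, a setting chosen after seeing the data. With all 12 libraries in 1 fit, Pias3-/- replicate 2 included, 1 member was called. Over all genes the age comparison gave 967 calls, 1734 without the FPKM filter and 1565 with filterByExpr. The interaction gave 0 members called under every alternative run. At 18 months 5 members turned sign with 1 more library left out, the lowest value being without Pias3-/- replicate 3 and the highest without Pias3+/+ replicate 3: Cryaa (-0.71 to 2.32), Cryba1 (-0.34 to 2.68), Cryba2 (-0.62 to 1.54), Cryba4 (-1.05 to 2.27) and Crybb2 (-0.40 to 2.87). The fitted interaction of Crygd, which rests on 0 counts in 18-month Pias3-/- replicates 1 and 3 and has no meaningful sign, was -0.53 ± 2.36 (SE), and 0.24 with DESeq2, 1.37 without 18-month Pias3+/+ replicate 3 (lowest, -1.42, without P21 Pias3+/+ replicate 2) and 3.66 with Pias3-/- replicate 2. The cause of the changes at 18 months was not tested. The median ratio of Pias3-/- replicate 2 to the highest other library over the members was 8.07, and 8.09 with DESeq2 size factors and 7.80 with library size alone.

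Deviations of same-numbered libraries correlated at -0.21, 0.38 and 0.55 at P21 and at 0.35, -0.07 and 0.22 at 18 months. Differently numbered libraries were not compared, so whether the replicate numbers pair the samples is not settled. With the replicate number as a block, 0 members (175 genes) were called at P21, 1 member (Cryaa, 208 genes) at 18 months without Pias3-/- replicate 2, where Cryba2 turned to -0.12, 10 members with age in Pias3+/+ and 0 in the interaction. The block at 18 months leaves few residual degrees of freedom, since replicate 2 there is a Pias3+/+ library alone. Depth limits the 18-month values of Cryba4, Crybb1 and Crybb3, which rest on 2 to 42 counts outside replicate 2, and of Crygd.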
